A study of Bos taurus with 33 samples.

Results

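The late oestrous cycle was examined in the endometrium of cyclic cattle, with 4 animals on day 18 set against 3 on day 15. These 7 arrays are of 33 in the whole series and were taken by their titles, which name the day and the non-pregnant controls. All animals were Bavarian Simmental heifers whose oestrus had been synchronised with cloprostenol, an analogue of prostaglandin F2α. The cyclic heifers were sham-inseminated with the sperm-free supernatant of centrifuged semen and slaughtered on the named day. Intercaruncular endometrium, the glandular lining between the sites where a placenta would attach, was taken from the uterine horn on the side of the corpus luteum. The sampled stretch of that horn is labelled caudal on day 18 and medial on day 15. For comparison, the pregnant heifers of the same days (4 on day 18 and 3 on day 15) were inseminated and sampled at those same stretches, and 5 cyclic heifers of day 12 gave the earlier level. The labels give no animal ages and the sources used here no plasma progesterone, so the luteal state of each animal is not known here.

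Around these days the cycle of a cow that has not conceived comes to its turning point. The endometrium, long under progesterone, regains oestrogen and oxytocin receptors in its epithelium. Oxytocin then triggers pulses of prostaglandin F2α, which end the life of the corpus luteum (luteolysis), and progesterone falls. In pregnancy the conceptus secretes interferon tau, which is known to restrain this receptor rise in ruminants.

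Each animal's RNA was hybridised to its own Affymetrix bovine array, and values are log2 levels per probe set. The 4 arrays of day 18 had a deposited median of 7.25 and those of day 15 one of 6.51, and sorted values matched within a day and not between days, so the 7 arrays were quantile normalised together. Array correlations were 0.991 to 0.993 within day 18, 0.99 to 0.992 within day 15 and 0.976 to 0.981 between the days. After normalisation the 9 spiked control probe sets averaged 10.11 ± 0.11 on day 18 and 9.76 ± 0.12 on day 15 (SD, n = 4 and 3; exact permutation test, two-sided, p = 0.0571, the smallest that 4 against 3 can give, adjusted p = 0.0714 over 5 control measures). The 3′ minus 5′ difference was 2.04 on day 18 and 2.44 on day 15 for actin, -1.54 and -1.94 for EF1A (exact p = 0.0571 and adjusted p = 0.0714 for each) and -0.02 and -0.08 for GAPDH (exact p = 0.4, also when adjusted). The spiked, actin and EF1A signals did not overlap between the days, whereas the GAPDH signals did. With the GAPDH difference as a covariate 7876 of the 24016 probe sets passed, and with centring on the spiked controls 1663 were higher and 8784 lower; the part of the actin and EF1A signals was not tested. Day, sampled stretch of the horn and normalisation set coincide in the cyclic animals and cannot be told apart. In whole tissue, fewer cells of a type and less RNA per cell cannot be told apart either.

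Between day 15 and day 18 a large share of the measured transcripts differed. Of 24016 probe sets, 9267 passed an adjusted p of 0.05 in limma (38.6%), 4731 higher and 4536 lower on day 18. By gene, with the brightest probe set standing for each of 9155 genes, 1807 were higher (19.7%) and 1522 lower (16.6%), and in 4088 genes (44.7%) the 4 day 18 animals did not overlap with the 3 day 15 animals. Most of these changes were small: the median absolute log2 difference of the genes past the threshold was 0.427, 133 of them differed by 1 or more (61 higher and 72 lower) and 1 by 2 or more. Of 1045 genes past the threshold that have other probe sets, 193 had another probe set past it in the opposite direction, which is stated beside each gene described below that it concerns. The deposited values were 0.655 log2 higher on day 18 at the median probe set, and all changes below are relative to that shift. Where a named gene that fell stood higher on day 18 before normalisation, the words "sign turned as deposited" say so. Rises carry no such mark, though centring on the spiked controls ended the calls of 32 of the 156 named genes, most of them rises.

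The pregnant animals shared most of these changes. Their day 18 minus day 15 comparison, at the same stretches of the horn and in the same normalisation sets, called 2161 genes higher (23.6%) and 1745 lower (19.1%). Of the probe sets called in cyclic animals, 6822 were called in the same direction in pregnant animals (73.6% of the cyclic and 66.4% of the pregnant calls) and 41 in the opposite direction. Across probe sets, which are not independent replicates and share the day, the stretch of horn and the normalisation set, the cyclic and pregnant changes correlated at r = 0.79 (rho = 0.788). The difference between the cyclic and the pregnant change, fitted as 1 term over the 14 arrays, passed for 14 genes (0.153%), 3 positive and 11 negative. At the probe set level limma called 23 for this term, with 2365 at an unadjusted p below 0.05. Its median standard error was 0.148. Differences of several times their error did not pass with this number of arrays, such as those of ESR1 (0.80 ± 0.182) and KDR (1.04 ± 0.247). The small number of calls therefore does not show that the cyclic and pregnant changes of the other genes were equal.

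**Figure D1:**
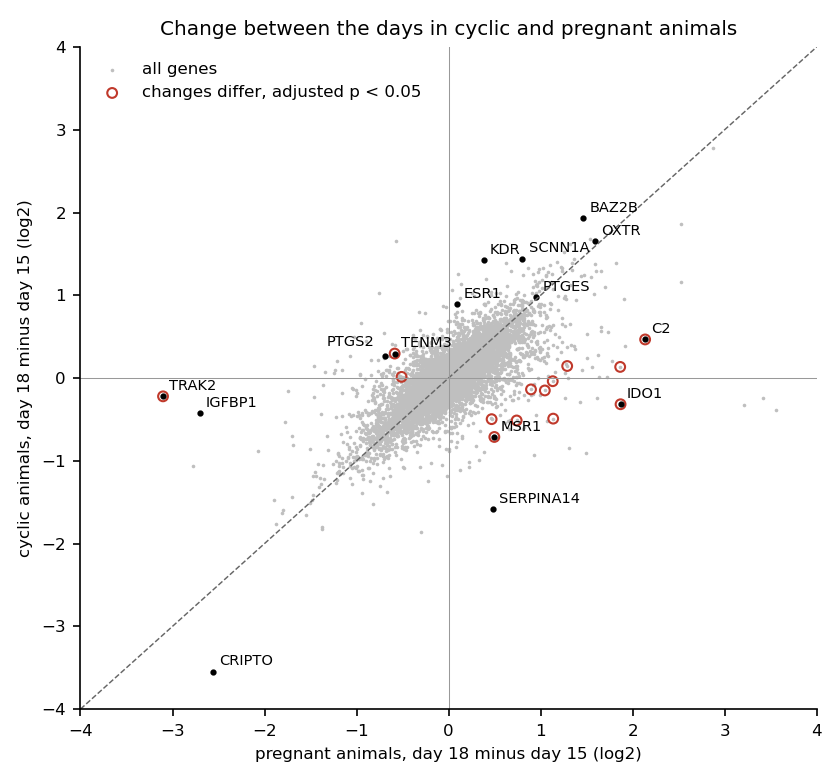
Log2 difference between day 18 and day 15 for each of 9155 genes, in cyclic animals (vertical axis) and pregnant animals (horizontal axis). Each dot is 1 gene, the dashed line marks equal change, red rings mark the 14 genes whose changes differ, and 15 genes are named. OXTR and PTGES lie near the line, whereas ESR1, KDR and SERPINA14 lie away from it without passing the test of the difference.

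The receptors that open luteolysis were higher on day 18. OXTR, the oxytocin receptor, stood at 6.27, 5.96, 7.07 and 6.29 in the day 18 animals, against 4.10, 5.14 and 4.98 in the day 15 animals. No day 18 animal overlapped with a day 15 animal, and the lowest level was that of day 15 animal 1. The change was 1.66 ± 0.309 (SE), a 3.15-fold rise (adjusted p = 0.00423). In pregnant animals OXTR rose by 1.59 ± 0.257 (adjusted p = 0.000309), with levels of 5.92, 5.91, 5.46 and 5.62 on day 18 and 4.02, 4.18 and 4.21 on day 15. The cyclic change exceeded the pregnant one by 0.06 ± 0.363 (adjusted p = 0.976).

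ESR1, the oestrogen receptor alpha, stood at 5.61, 5.64, 6.06 and 5.58 on day 18, against 4.94, 4.79 and 4.76 on day 15. Animal 3 was the highest in OXTR and in ESR1 alike, and the days did not overlap. The rise was 0.89 ± 0.126 (adjusted p = 0.00126), and it held without any 1 of the 7 animals (0.78 to 0.95). In pregnant animals ESR1 differed by 0.09 ± 0.129 (adjusted p = 0.595). The difference between these changes, 0.80 ± 0.182, did not pass over all probe sets (adjusted p = 0.138).

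PGR, the progesterone receptor, was at 4.24, 4.54, 4.24 and 4.23 on day 18 and at 4.00, 4.54 and 4.73 on day 15. The days overlapped, with the lowest and the highest animal both on day 15, and the difference was -0.11 ± 0.169 (adjusted p = 0.648). FKBP4, a co-chaperone of steroid receptors, stood at 10.82, 10.82, 10.77 and 10.64 on day 18, against 10.27, 10.17 and 10.29 on day 15. It rose by 0.52 ± 0.074 (adjusted p = 0.00135), and by 0.64 in pregnant animals. PGRMC1, a membrane-associated progesterone receptor component, fell by 0.31 ± 0.0869 (adjusted p = 0.0246; sign turned as deposited), a call that ended without any 1 of day 15 animals 1 and 3 and day 18 animals 2 and 4 (-0.36 to -0.26). PRLR, the prolactin receptor, differed by -0.15 (adjusted p = 0.453). Of 13 measured genes in the list of oxytocin, steroid and prolactin receptors, 3 rose, 1 fell and 9 did not pass (2 rose and 4 fell with centring on the spiked controls), with a median of -0.07 beside 0.02 over all genes. The share that rose was thus near that of all genes.

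Among 14 measured oestrogen-responsive genes 1 passed. CCND1, the cyclin that drives entry into the cell cycle, rose by 0.36 ± 0.0872 (adjusted p = 0.0127), and by 0.38 in pregnant animals. OVGP1, the oviduct glycoprotein, was at 6.66 to 7.05 on day 18 and 6.65 to 6.84 on day 15 (difference 0.09, adjusted p = 0.504). The list median was -0.02.

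**Figure D2:**
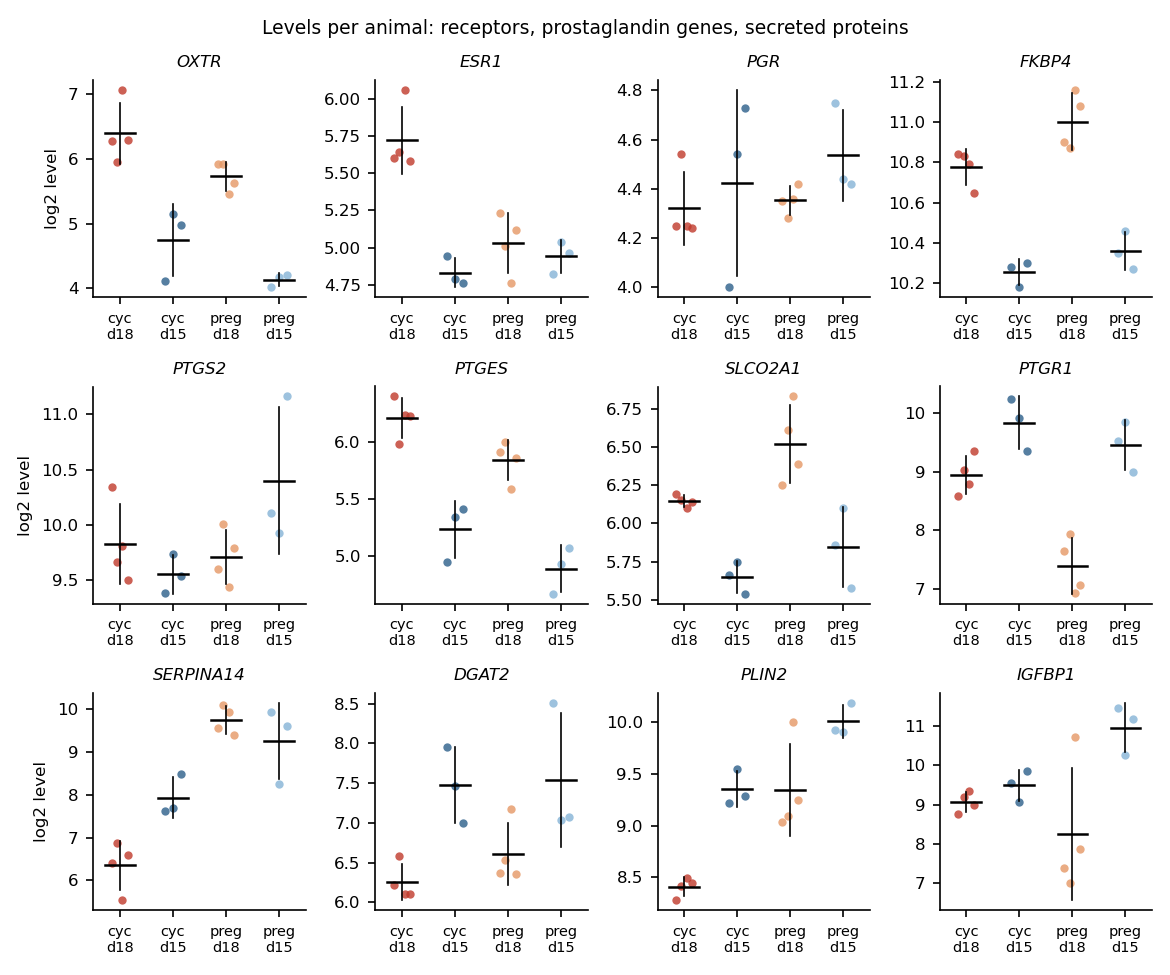
Log2 levels of 12 genes in each animal, with cyclic (cyc) and pregnant (preg) animals on day 18 (d18) and day 15 (d15), all 14 arrays quantile normalised together. Points are animals, horizontal bars means and vertical bars the SD, with separate vertical scales that do not start at 0. ESR1 is high in cyclic day 18 animals alone among the 4 groups, while OXTR and PTGES are higher on day 18 in both cyclic and pregnant animals.

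Among prostaglandin genes 3 terminal synthases and a transporter rose after quantile normalisation. PTGES, which makes prostaglandin E2, stood at 6.41, 5.98, 6.24 and 6.23 on day 18, against 4.96, 5.34 and 5.40 on day 15. It rose by 0.98 ± 0.134 (1.98-fold, adjusted p = 0.0011) without overlap, and by 0.95 in pregnant animals (adjusted p = 0.000145). PTGES3, the cytosolic synthase and co-chaperone p23, rose by 0.49 ± 0.0625 in cyclic and by 0.51 in pregnant animals. PTGDS, a prostaglandin D synthase, was at 11.04, 10.63, 11.12 and 10.92 on day 18 and at 10.34, 10.13 and 10.05 on day 15, a rise of 0.75 ± 0.128 (adjusted p = 0.00286) beside 0.33 in pregnant animals (adjusted p = 0.222). SLCO2A1, which carries prostaglandins across the cell membrane, rose by 0.49 ± 0.0721 (adjusted p = 0.00152). With centring on the spiked controls the calls of PTGES3 and PTGDS ended, and with median centring that of PTGES3 ended too. The calls of PTGES and SLCO2A1 held with either centring.

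The inducible first enzyme, 1 enzyme with prostaglandin F synthase activity and the main inactivating enzyme did not pass. PTGS2, the inducible cyclooxygenase, was at 10.33, 9.66, 9.80 and 9.50 on day 18 and at 9.40, 9.73 and 9.54 on day 15. Those levels overlapped (difference 0.27 ± 0.187, adjusted p = 0.289), and 1 of its 2 other probe sets, at a far lower level, passed as higher. PTGS2 fell in pregnant animals by 0.69 ± 0.263 (adjusted p = 0.0477), and the difference between the changes was 0.96 ± 0.372 (adjusted p = 0.405). AKR1B1, an aldose reductase with prostaglandin F synthase activity in the bovine endometrium, differed by -0.11 ± 0.101 (adjusted p = 0.437). HPGD, the enzyme that inactivates prostaglandins, differed by 0.08 ± 0.156 (adjusted p = 0.718).

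PTGR1, a reductase acting on prostaglandin and leukotriene breakdown products, was at 8.60, 9.03, 8.81 and 9.36 on day 18, against 10.23, 9.92 and 9.35 on day 15. The highest day 18 animal lay level with the lowest day 15 animal, and the difference of -0.89 ± 0.233 (adjusted p = 0.0182) no longer passed without day 15 animal 1 or 2 (range over single animals -1.12 to -0.69). In pregnant animals PTGR1 fell by 2.07 ± 0.284. The receptors PTGFR (-0.11, adjusted p = 0.376) and PTGER3 (-0.13, adjusted p = 0.198) did not pass, though 1 of 2 other PTGFR probe sets was lower. In all, 4 of 17 measured prostaglandin genes rose (23.5%, beside 19.7% of all genes) and 1 fell (5.88%, beside 16.6%), with a median of -0.07. With median centring 3 rose and 3 fell, and with centring on the spiked controls 2 rose and 4 fell.

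Enzymes that set local glucocorticoid levels moved in opposite directions. HSD11B1, which regenerates active cortisol, stood at 5.64, 5.84, 5.65 and 5.79 on day 18, against 6.76, 6.24 and 6.70 on day 15. It fell by 0.84 ± 0.13 (adjusted p = 0.00189). In pregnant animals it differed by -0.45 ± 0.339 (adjusted p = 0.308), and in the fit on the 14 arrays the cyclic fall did not pass. HSD11B2, which inactivates cortisol, was at 9.53, 9.22, 9.25 and 9.62 on day 18 and at 8.54, 8.89 and 8.89 on day 15, a rise of 0.63 ± 0.133 (adjusted p = 0.00729) beside 0.50 in pregnant animals. CYP19A1, the aromatase, fell by 0.36 ± 0.0869 (adjusted p = 0.0122; sign turned as deposited), and 1 of its other probe sets fell too. SULT1E1, the oestrogen sulfotransferase, lay at 2.35 to 2.65 on day 18 and 2.56 to 2.64 on day 15, near the bottom of the scale. Among 12 steroid-metabolising enzymes 2 rose and 2 fell, and 4 fell with either centring.

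Among secreted proteins the uterine serpin fell. SERPINA14, the uterine milk protein of ruminants and a progesterone-induced product of the glands, stood at 6.41, 6.87, 5.54 and 6.61 on day 18, against 7.63, 7.69 and 8.49 on day 15. All day 18 animals lay below all day 15 animals, and SERPINA14 fell by 1.58 ± 0.327, or 2.99-fold (adjusted p = 0.00662). Its other probe set fell by 1.52 (adjusted p = 0.00327). Pregnant animals differed by 0.48 ± 0.384 (adjusted p = 0.336), with levels of 9.56, 10.09, 9.93 and 9.40 on day 18 and 9.93, 8.26 and 9.60 on day 15. The difference between the changes, -2.06 ± 0.543, did not pass over all probe sets (adjusted p = 0.203).

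Among 4 lipid genes described here, DGAT2 and PLIN2 fell and LPL and FABP3 did not pass. DGAT2, which makes triacylglycerol, was at 6.22, 6.58, 6.11 and 6.10 on day 18, against 7.96, 7.46 and 7.01 on day 15 (difference of -1.22 ± 0.216, adjusted p = 0.00333). PLIN2, which coats lipid droplets, was at 8.28, 8.43, 8.49 and 8.46 on day 18 and at 9.22, 9.55 and 9.30 on day 15 (difference of -0.94 ± 0.0975, adjusted p = 0.000372). Neither gene overlapped between the days, and both fell in pregnant animals too, by 0.93 (adjusted p = 0.0377) and 0.67 (adjusted p = 0.0108). LPL, lipoprotein lipase, differed by -0.26 (adjusted p = 0.391) and FABP3, a fatty acid carrier, by 0.01 (adjusted p = 0.985).

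CST6, the cysteine protease inhibitor cystatin M, fell by 1.03 ± 0.246 (adjusted p = 0.0121), with 10.48, 11.14, 10.43 and 10.54 on day 18 and 12.24, 11.34 and 11.46 on day 15. Its dimmer probe set passed the opposite way, at 0.66, so the direction of CST6 depends on the probe set. IGFBP1, a binding protein of insulin-like growth factors, was at 8.76 to 9.34 on day 18 and 9.07 to 9.84 on day 15 (difference -0.42 ± 0.197, adjusted p = 0.125). IGFBP1 fell in pregnant animals by 2.70 ± 0.654 (adjusted p = 0.00479). Their levels were 7.40, 7.02, 10.71 and 7.87 on day 18 and 11.45, 10.25 and 11.16 on day 15. Pregnant day 18 animal 3 thus lay within the day 15 range. SPP1 (osteopontin), CTSL (cathepsin L), DKK1 (a Wnt inhibitor) and MUC1 (the main surface mucin) differed by -0.06, -0.02, -0.08 and 0.01 with adjusted p-values of 0.697 to 0.975. In the list of histotroph and progesterone-responsive genes, 4 of 32 rose and 6 fell (1 and 12 with centring on the spiked controls). The list's median was -0.07 in cyclic and 0.24 in pregnant animals.

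Among transport genes a sodium channel subunit rose and several nutrient carriers fell. SCNN1A, the alpha subunit of the epithelial sodium channel, stood at 8.78, 8.57, 8.85 and 8.05 on day 18, against 7.45, 6.86 and 7.05 on day 15. It rose by 1.44 ± 0.209 (2.72-fold, adjusted p = 0.00141), while in pregnant animals it was 0.80 ± 0.313 higher (adjusted p = 0.0534). SLC5A1, a sodium-coupled glucose transporter, fell by 0.87 ± 0.19 (adjusted p = 0.00849) and by 1.31 in pregnant animals. SLC7A1, a carrier of arginine and lysine, stood at 7.25, 7.27, 7.19 and 7.32 on day 18, against 8.35, 8.10 and 8.31 on day 15. It fell by 1.00 ± 0.081 in cyclic and by 1.01 in pregnant animals. SLC27A6, a fatty acid transport protein, was at 5.96, 6.54, 5.36 and 5.71 on day 18 and at 6.81, 7.01 and 7.19 on day 15. That difference of -1.11 ± 0.247 (adjusted p = 0.00905) did not pass in the fit on 14 arrays, and pregnant animals differed by 0.12 (adjusted p = 0.89). Of 29 measured transport genes 2 rose and 8 fell (27.6%, beside 16.6% of all genes), with 6 to 9 falling without any 1 animal. In pregnant animals 2 rose and 6 fell.

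**Figure D3:**
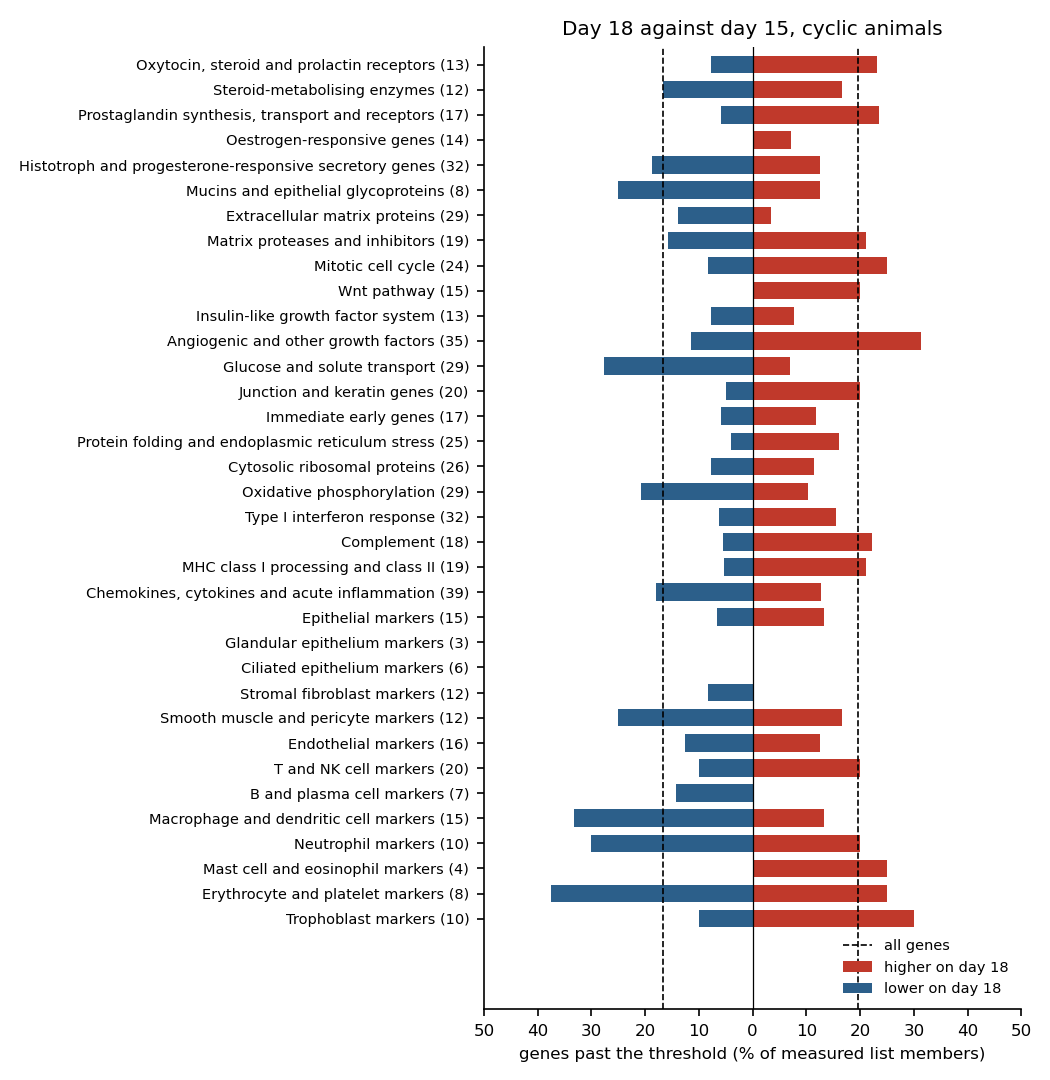
Share of the measured members of each of 35 gene lists that were higher (red, right) or lower (blue, left) on day 18 than on day 15 in cyclic animals, with the number measured in brackets. Dashed lines mark the 19.7% higher and 16.6% lower of all genes; 13 lists lie inside both lines, 14 pass the line for higher, 10 that for lower, and 2 of these pass both.

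Across the 35 lists, a smaller share of members passed than of all genes. Of 574 distinct list genes, 93 rose and 72 fell, together 28.7%, beside 36.4% of all genes. The counts of each list stand beside 19.7% higher and 16.6% lower of all genes in cyclic animals, and 23.6% and 19.1% in pregnant animals. In 4 equal bins of mean level, from dim to bright, 41.1%, 43.0%, 36.3% and 33.9% of probe sets passed. Of the 165 list genes past the threshold, 110 were past it in pregnant animals in the same direction and 5 in the opposite one.

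The 12 largest rises apart from OXTR, KDR and SCNN1A were of genes with varied roles. BAZ2B, a bromodomain protein of chromatin, stood at 8.11, 8.12, 7.83 and 7.65 on day 18, against 5.85, 5.93 and 6.19 on day 15. It rose by 1.94 ± 0.137, 3.82-fold (adjusted p = 9.28e-05), and by 1.46 in pregnant animals. ALCAM, an adhesion molecule of the immunoglobulin family, was at 5.38, 5.59, 5.21 and 5.50 on day 18 and at 3.93, 4.00 and 3.48 on day 15 (rise of 1.62 ± 0.143, adjusted p = 0.000202; 1.32 in pregnant animals). In both genes every day 18 animal lay far above every day 15 animal.

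ACOT4, an acyl-CoA thioesterase, rose by 1.68 ± 0.115, and TMEM17, a membrane protein of the base of the primary cilium, by 1.52 ± 0.0711. DDX46, a helicase of the spliceosome, rose by 1.44 ± 0.173 and SMC4, a condensin subunit that compacts chromosomes, by 1.39 ± 0.13. The probe set annotated as RPL37, a ribosomal protein, rose by 1.41 ± 0.129. Its mean level was 5.81, far below the 12.83 to 12.88 of the ribosomal list on day 18. The probe set annotated as INS (insulin) rose by 1.39 ± 0.106, with levels of 5.68, 5.68, 5.66 and 6.00 on day 18 and 4.49, 4.23 and 4.37 on day 15. IQCA1, a protein related to the dynein regulatory complex of motile cilia, was at 8.83, 9.69, 8.83 and 9.54 on day 18 and at 7.68, 7.87 and 7.93 on day 15. It rose by 1.39 ± 0.224 (adjusted p = 0.00218), with 1 of 2 other probe sets also higher, and stood 0.63 ± 0.314 higher in pregnant animals (adjusted p = 0.124). The 6 measured markers of ciliated epithelium had a median difference of -0.11 and a mean list level of 7.28 to 8.26 on day 18 and 7.26 to 8.12 on day 15. Of the 12 rises, 9 also rose in pregnant animals.

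The 12 largest falls were led by CRIPTO, a co-receptor for nodal of the transforming growth factor family. It stood at 5.87, 8.23, 5.96 and 6.31 on day 18, against 9.41, 10.40 and 10.61 on day 15. Day 18 animal 2 stood well above the other day 18 animals and still below every day 15 animal. CRIPTO fell by 3.55 ± 0.568, or 11.7-fold (adjusted p = 0.00216), and was the 1 gene past the threshold that changed by 2 or more. In pregnant animals it fell by 2.56 ± 0.605 (adjusted p = 0.00418).

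RUBCNL, a regulator of autophagy, was at 7.30, 8.87, 7.29 and 7.51 on day 18 and at 9.42, 8.93 and 10.37 on day 15, and animal 2 of day 18 again stood above its group. It fell by 1.83 ± 0.448 (adjusted p = 0.0137; -1.37 in pregnant animals). PCSK1, a convertase of prohormones, was at 3.15 to 3.39 on day 18 and 4.82 to 5.22 on day 15 (difference of -1.76 ± 0.109), and it fell by 1.87 in pregnant animals. PROC, the anticoagulant protein C, fell by 1.60 ± 0.105, and SZRD1 by 1.65 ± 0.0905. ANKRD22, an ankyrin repeat protein, was at 7.51, 7.12, 7.49 and 7.40 on day 18 and at 8.84, 9.09 and 8.77 on day 15. It fell by 1.52 ± 0.119 in cyclic and by 0.82 in pregnant animals, and its second probe set fell too.

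CPN1, a carboxypeptidase that trims kinins and anaphylatoxins, fell by 1.5 ± 0.276 (both probe sets), ADAM12, a cell-surface metalloprotease, by 1.47 ± 0.248, TAGLN3, a calponin family protein, by 1.48 ± 0.104 and CCNT1, a cyclin of transcription elongation, by 1.43 ± 0.103. BOLA-DQB, an MHC class II beta chain that varies strongly between individual cattle, was at 4.62, 4.79, 4.90 and 4.81 on day 18 and at 5.90, 6.40 and 7.44 on day 15. Its difference of -1.80 ± 0.306 (adjusted p = 0.00281) did not pass in the fit on 14 arrays, and the pregnant animals differed by -1.38 (adjusted p = 0.177). Of the 12 falls, 10 also fell in pregnant animals, and SERPINA14 and BOLA-DQB were the exceptions.

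**Figure D4:**
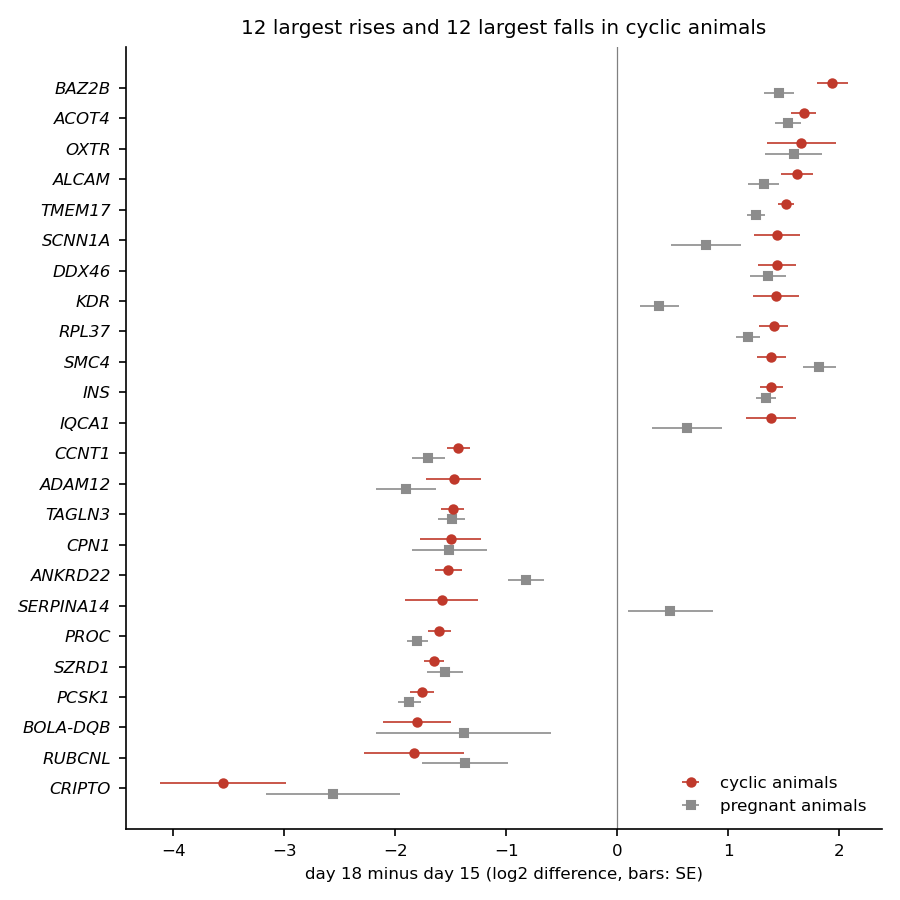
Log2 difference between day 18 and day 15 of the 12 largest rises and 12 largest falls in cyclic animals (red circles), with the same difference in pregnant animals (grey squares) and bars of 1 SE. Most pairs lie within about 0.5 of each other, and KDR, SCNN1A, IQCA1, ANKRD22, CRIPTO and SERPINA14 show the wider gaps.

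In the main fit on 7 arrays, growth factor genes held the largest share of rises among the lists with over 10 measured members. KDR, the main receptor for vascular endothelial growth factor, stood at 5.50, 5.08, 5.87 and 4.95 on day 18, against 4.08, 3.86 and 3.83 on day 15. It rose by 1.43 ± 0.208 (2.69-fold, adjusted p = 0.00144), and its dimmer probe set rose too. In pregnant animals KDR was 0.38 ± 0.175 higher (adjusted p = 0.0948). The difference between the changes was 1.04 ± 0.247 (adjusted p = 0.152).

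TGFBR1, the type I receptor for transforming growth factor beta, was at 5.87, 5.31, 5.68 and 5.75 on day 18 and at 4.17, 4.39 and 4.51 on day 15 (rise of 1.30 ± 0.142, adjusted p = 0.000446; 0.68 in pregnant animals). VEGFD, a lymphatic growth factor, was at 5.09, 5.01, 5.47 and 5.78 on day 18 and at 7.09, 6.34 and 6.31 on day 15, a difference of -1.24 ± 0.241 (adjusted p = 0.00504). The dimmer VEGFD probe set differed by 0.0031 (adjusted p = 0.984). ANGPT1, a ligand that stabilises vessels, fell by 0.92 ± 0.0829 (adjusted p = 0.000221). Both fell in pregnant animals as well, by 0.86 and 0.78. Of 35 measured genes 11 rose (31.4%, beside 19.7% of all genes) and 4 fell, with a list median of 0.02. With median centring in place of quantile normalisation 8 rose and 7 fell, and with centring on the spiked controls 4 rose and 10 fell, so the balance of the list turned with the scaling. In the fits on 14 and on 24 arrays 8 rose, as with the GAPDH covariate and with the mean over probe sets, and 6 without the dimmest probe sets. The fit on 14 arrays gave larger shares elsewhere, with 6 of 19 matrix proteases and inhibitors and 6 of 20 T and NK cell markers. In pregnant animals 5 of the growth factor genes rose and 5 fell.

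Endothelial markers did not move together. CD34 rose by 0.79 ± 0.13 (adjusted p = 0.00235), with 7.07, 7.32, 7.66 and 7.47 on day 18 and 6.59, 6.60 and 6.56 on day 15, and KDR rose as given. ENG (endoglin) was at 7.93, 8.19, 8.28 and 7.66 on day 18 and at 8.97, 8.87 and 8.64 on day 15, and fell by 0.81 ± 0.155 (adjusted p = 0.00471). EMCN (endomucin) fell by 0.49 ± 0.156 (adjusted p = 0.0389, sign turned as deposited). That call ended in 6 of the 7 fits without 1 animal, day 18 animal 3 being the exception (-0.60 to -0.36). The second EMCN probe set differed by -0.70 (adjusted p = 0.0146). The rises and the falls were each 12.5% of the list, beside 19.7% and 16.6% of all genes. The remaining 12 of 16 did not pass, and the mean level of the list was 7.64 to 8.15 over day 18 animals and 7.50 to 7.83 over day 15 animals.

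In the extracellular matrix, 1 of 29 structural genes rose and 4 fell (10 fell with median centring and 14 with centring on the spiked controls). THBS2, a matricellular thrombospondin, rose by 0.76 ± 0.194 (adjusted p = 0.0163), and THBS1, its relative and an inhibitor of vessel growth, fell by 0.37 ± 0.0761 (adjusted p = 0.00664; sign turned as deposited), as did 3 of its 5 other probe sets. COL18A1, the basement membrane collagen from which endostatin is cut, fell by 0.64 ± 0.17 (adjusted p = 0.019; sign turned as deposited), though not without day 15 animal 1 or 2 (-0.87 to -0.47). In pregnant animals 3 of these genes rose and 12 fell.

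Among proteases and their inhibitors, 4 of 19 rose and 3 fell (2 and 8 with centring on the spiked controls). MMP2, which degrades basement membrane collagen, stood at 9.33, 9.56, 9.64 and 9.78 on day 18, against 10.22, 9.91 and 10.32 on day 15, and fell by 0.57 ± 0.132 (adjusted p = 0.0107; difference of 0 as deposited). TIMP1, an inhibitor of matrix metalloproteases, was at 9.44, 9.59, 9.53 and 9.66 on day 18 and at 9.22, 9.11 and 8.83 on day 15 (rise of 0.50 ± 0.105, adjusted p = 0.00709). Its second probe set, at nearly the same level, differed by 0.01 (adjusted p = 0.933). MMP23, a membrane-anchored metalloprotease, rose by 0.59 ± 0.0715 (both probe sets), and ADAMTS5, a proteoglycan-cleaving enzyme, by 0.66 ± 0.129 (adjusted p = 0.00527). The dimmer ADAMTS5 probe set differed by -0.21 (adjusted p = 0.568).

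Few epithelial genes passed. KRT7, a keratin of simple epithelia, was at 7.66, 7.92, 8.39 and 7.76 on day 18 and at 7.03, 7.40 and 7.08 on day 15 (rise of 0.76 ± 0.177, adjusted p = 0.0111). TJP1, a scaffold of tight junctions, rose by 0.78 ± 0.104 (adjusted p = 0.000987). The dimmer TJP1 probe set differed by -0.00179 (adjusted p = 0.994). GJB2, a gap junction connexin, fell by 0.54 ± 0.123 (adjusted p = 0.00981, sign turned as deposited, not past in the fit on 14 arrays). The other GJB2 probe sets differed by 0.13 and 0.17 without passing (adjusted p = 0.357 and 0.302). MUC15, a membrane mucin, rose by 0.56 ± 0.0837 (adjusted p = 0.00157). Its dimmer probe sets differed by 0.18 and 0.31 without passing (adjusted p = 0.226 and 0.285). Of 15 epithelial markers 2 rose and 1 fell (1 and 3 with either centring), with a mean list level of 8.70 to 8.86 over day 18 animals and 8.66 to 8.75 over day 15 animals. Of 12 stromal fibroblast markers 1 fell, PDGFRB (-0.40 ± 0.0758; sign turned as deposited). Smooth muscle and pericyte markers gave 2 higher and 3 lower of 12, with LMOD1 (leiomodin) falling by 0.84 ± 0.08. The mean level of that last list ran from 8.38 to 9.00 on day 18 and from 8.24 to 8.78 on day 15.

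Of 15 Wnt pathway genes 3 rose (20%, beside 19.7% of all genes), and 2 fell with either centring. TCF7L2, a transcription factor of the pathway, rose by 0.63 ± 0.13, LRP5, a co-receptor, by 0.45 ± 0.0778 and CTNNB1, beta-catenin, by 0.40 ± 0.0703 (-0.04 with centring on the spiked controls). WNT11 differed by -0.15 (adjusted p = 0.124). In the insulin-like growth factor system 1 of 13 rose and 1 fell, and 4 fell with either centring. IGFBP4 rose by 0.49 ± 0.124 (adjusted p = 0.0158), though not without day 15 animal 2 or 3 (0.40 to 0.64). IGF1 differed by -0.23 ± 0.0896 (adjusted p = 0.0763), 1 of its 3 other probe sets fell, and in pregnant animals it fell by 0.64.

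Of 24 cell cycle genes 6 rose (25%, beside 19.7% of all genes) and 2 fell (median 0.12). However, 0 rose and 3 fell in the fit on 14 arrays, 1 and 3 in that on 24 arrays, 1 and 3 with centring on the spiked controls, and 2 and 1 without the dimmest probe sets. RRM2, a subunit of ribonucleotide reductase, stood at 4.81, 4.67, 4.94 and 4.65 on day 18, against 4.02, 3.68 and 3.76 on day 15. It rose by 0.95 ± 0.109 (adjusted p = 0.000534). BUB1B, a spindle checkpoint kinase, rose by 0.58 ± 0.109 (-0.06 with centring on the spiked controls). CENPF rose by 0.47 ± 0.119 (adjusted p = 0.0162, not past without day 15 animal 2), and ASPM fell by 0.41 ± 0.0838 (adjusted p = 0.00654, sign turned as deposited). The dimmer CENPF probe set rose by 0.58 (adjusted p = 0.00129), and that of ASPM differed by 0.19 without passing (adjusted p = 0.345). RRM2, BUB1B and CENPF did not pass in the fit on 14 arrays, which shares its estimate of the spread between cyclic and pregnant animals. Pregnant day 18 animal 2 stood at 7.40, 5.24 and 6.29 in these genes. The other pregnant day 18 animals stood at 4.87 to 5.23, 3.75 to 4.24 and 4.51 to 4.66. Cyclic RRM2 levels there were 4.66 to 4.94 on day 18 and 3.68 to 4.03 on day 15. Whether animal 2 accounts for the lost calls was not tested. In pregnant animals 13 of the 24 cell cycle genes rose and 1 fell in the fit on 14 arrays (median 0.49). Beside them stand 23.6% higher and 19.1% lower of all genes. This pregnant count was not refitted without pregnant day 18 animal 2.

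Of 15 macrophage and dendritic cell markers 5 fell and 2 rose in cyclic animals, and 1 fell and 8 rose as deposited. CD209, a lectin of dendritic cells and macrophages, was at 4.21, 4.13, 4.48 and 4.49 on day 18 and at 5.32, 5.30 and 5.25 on day 15 (difference of -0.96 ± 0.105, adjusted p = 0.000458). AIF1, a calcium-binding protein of macrophages, was at 7.51, 7.85, 7.57 and 7.73 on day 18 and at 8.45, 8.35 and 8.18 on day 15 (difference of -0.66 ± 0.106, adjusted p = 0.00209; sign turned as deposited). MSR1, a scavenger receptor, stood at 5.65, 6.20, 6.10 and 5.94 on day 18, against 6.94, 6.64 and 6.47 on day 15. It fell by 0.71 ± 0.154 (adjusted p = 0.00815; sign turned as deposited), whereas a dimmer probe set of MSR1 rose by 0.74 (adjusted p = 0.000976). C1QC, a chain of complement C1q made by macrophages, fell by 0.55 ± 0.155 (adjusted p = 0.0243; sign turned as deposited), a call that ended without any 1 of day 15 animals 1 and 2 and day 18 animals 1 and 2 (-0.69 to -0.40). The 5 that fell are 33.3% of the list, beside 16.6% of all genes, and 8 did not pass (3 lower and 1 higher with the replicate block), with a mean list level of 6.48 to 6.67 on day 18 and 6.59 to 7.01 on day 15. In pregnant animals 9 rose and 1 fell, beside 23.6% higher and 19.1% lower of all genes. The list medians were -0.14 in cyclic and 0.46 in pregnant animals.

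The test of the difference was passed by several leukocyte genes. For MSR1, which rose by 0.50 in pregnant animals, the cyclic minus the pregnant change was -1.21 ± 0.187 (adjusted p = 0.031). This held for its brightest probe set alone, since the other MSR1 probe sets gave -0.11 and -0.31 (adjusted p = 0.886 and 0.594). FCGR3A, an antibody receptor of phagocytes and natural killer cells, was at 5.05, 5.29, 5.47 and 5.07 on day 18 and at 5.82, 5.76 and 5.63 on day 15. It fell by 0.51 ± 0.114 in cyclic animals (adjusted p = 0.009; sign turned as deposited) and rose by 0.74 ± 0.137 in pregnant animals (difference -1.25 ± 0.193, adjusted p = 0.031). CD86, a costimulatory molecule of antigen-presenting cells named here after its values were seen, fell by 0.50 ± 0.0868 (sign turned as deposited) and rose by 0.47 in pregnant animals (difference -0.97 ± 0.152, adjusted p = 0.031, ended in 10 of 14 fits without 1 animal). BPI, a bactericidal protein, fell by 0.49 ± 0.128 (adjusted p = 0.0176; sign turned as deposited; not past without day 15 animal 3, -0.38) and rose by 1.14 in pregnant animals (difference -1.62 ± 0.255, adjusted p = 0.031). These calls of the difference ended in 11 of 14 fits without 1 animal for MSR1, FCGR3A and BPI, while the values stayed at -1.31 to -1.08, -1.39 to -1.19 and -1.76 to -1.51.

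IDO1, which breaks down tryptophan, had the most negative value among the genes that passed this test. It was at 4.80, 4.90, 5.15 and 5.14 on day 18 and at 5.37, 5.34 and 5.23 on day 15 in cyclic animals, and at 7.49, 7.54, 8.65 and 7.46 on day 18 and 5.80, 6.26 and 5.69 on day 15 in pregnant animals. In cyclic animals it fell by 0.32 ± 0.103 (adjusted p = 0.0405; sign turned as deposited, and 0.11 with the mean over probe sets), and it ended without any 1 of day 15 animals 1, 2 and 3 and day 18 animals 1 and 2 (-0.37 to -0.25). The pregnant rise was 1.87 ± 0.242, and the difference -2.18 ± 0.343 (adjusted p = 0.031, past in 5 of 14 fits without 1 animal, -2.35 to -1.90). The dimmer probe set of IDO1 gave a difference of -2.5 that did not pass (adjusted p = 0.126).

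C2, a protease of the classical complement pathway, rose in both. It was at 6.69, 6.45, 6.46 and 6.78 on day 18 and at 6.30, 5.86 and 6.21 on day 15, a rise of 0.47 ± 0.13 (adjusted p = 0.023) that did not pass without any 1 of day 15 animal 2 and day 18 animals 1 and 4 (0.33 to 0.55). Its second probe set rose by 0.79. In pregnant animals C2 rose by 2.14 ± 0.121, and the cyclic minus the pregnant change was -1.67 ± 0.171 (adjusted p = 0.00324), and this call held in all 14 fits without 1 animal. KRT17, a keratin of stressed epithelium, differed by 0.13 ± 0.11 in cyclic animals (adjusted p = 0.364) and rose by 1.86 in pregnant animals (difference -1.73 ± 0.291, adjusted p = 0.0469, ended in 12 of 14 such fits).

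Among the positive differences TENM3, a teneurin adhesion protein, rose by 0.30 ± 0.0754 in cyclic animals (adjusted p = 0.0161; not past without day 15 animal 2, 0.23) and fell by 0.59 in pregnant animals (difference 0.88 ± 0.102, adjusted p = 0.00396). Its other 2 probe sets fell in cyclic animals, by 1.21 and 0.87, so the direction of TENM3 depends on the probe set. Their differences between cyclic and pregnant animals, 0.30 and 0.31, did not pass (adjusted p = 0.733 and 0.374). TRAK2, an adaptor for mitochondrial transport along microtubules, lay near the bottom of the scale, at 2.87, 2.74, 2.88 and 2.86 on day 18 and 3.44, 2.86 and 2.88 on day 15. In pregnant animals it was at 2.82, 2.92, 2.90 and 2.79 on day 18 and at 6.66, 5.76 and 5.47 on day 15, so that the pregnant day 15 animals stood apart from the other 3 groups (difference 2.88 ± 0.304, adjusted p = 0.00324). ALDH1L2, a mitochondrial folate enzyme, differed by 0.01 in cyclic animals and fell by 0.51 in pregnant animals (difference 0.53 ± 0.0836, adjusted p = 0.031, ended in 11 of 14 fits without 1 animal).

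Of 18 complement genes 4 rose in cyclic animals (22.2%, beside 19.7% of all genes) and 13 in pregnant animals (beside 23.6% of all genes). C1R was at 10.89, 10.93, 11.14 and 10.97 on day 18 and at 10.64, 10.26 and 10.03 on day 15, a rise of 0.67 ± 0.139 (adjusted p = 0.00657; 0.73 in pregnant animals). C1S, the partner protease of C1R, rose by 0.67 ± 0.0944 (0.82 in pregnant animals) and SERPING1, their inhibitor, by 0.56 ± 0.087 (both probe sets; 0.93 in pregnant animals). C1QC, also on this list, fell in cyclic animals, and no rise was called with centring on the spiked controls. The list medians were 0.17 and 0.78.

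Genes of the type I interferon response showed no common shift in cyclic animals. ISG15, a ubiquitin-like modifier, was at 8.03, 9.44, 7.99 and 8.56 on day 18 and at 9.40, 7.72 and 8.16 on day 15 (difference 0.08 ± 0.456, adjusted p = 0.91). MX1 and MX2, antiviral GTPases, differed by 0.70 ± 0.371 (adjusted p = 0.17) and 0.14 ± 0.289 (adjusted p = 0.725). The spread between cyclic animals of a day was wide, and day 15 animal 1 was the highest of its group in ISG15, MX1 and MX2. In pregnant animals ISG15 was high on both days, at 13.49 to 13.70 on day 18 and 13.35 to 13.52 on day 15. UBE2L6, the conjugating enzyme for ISG15, rose by 0.76 ± 0.0806 (both probe sets), and TRIM25, a ubiquitin ligase of the sensor pathway for viral RNA, fell by 0.77 ± 0.132. UBA7, the activating enzyme for ISG15, rose by 0.64 ± 0.189, a call that ended without any 1 of day 15 animals 2 and 3 and day 18 animals 2 and 4 (0.52 to 0.85). Of 32 genes 5 rose (15.6%, beside 19.7% of all genes) and 2 fell. Without any 1 animal 2 to 8 rose and 2 to 4 fell, and with centring on the spiked controls 2 rose and 7 fell.

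Antigen presentation and cytokines changed gene by gene. BOLA-DMA, which edits peptides on MHC class II, rose by 0.50 ± 0.103 (adjusted p = 0.00649). Of 19 genes of antigen presentation 4 rose and 1 fell, BOLA-DQB, whereas 3 rose and 6 fell with median centring and 1 rose and 6 fell with centring on the spiked controls. CCL4, a chemokine for lymphocytes and macrophages, was at 5.75, 5.61, 6.31 and 6.44 on day 18 and at 5.03, 4.58 and 4.73 on day 15 (rise of 1.25 ± 0.217, adjusted p = 0.00309; 1.47 in pregnant animals). CSF3, the granulocyte growth factor, was at 4.27, 4.25, 4.22 and 4.36 on day 18 and at 5.37, 5.40 and 5.47 on day 15, a difference of -1.14 ± 0.0666 (-1.21 in pregnant animals). IL18, an interleukin of the inflammasome, fell by 0.83 ± 0.0958. Of 39 chemokines and cytokines 5 rose and 7 fell.

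Markers of other blood cells moved in both directions. NCR1, a natural killer cell receptor, rose by 0.63 ± 0.0952, and GNLY, a lytic granule protein, fell by 1.19 ± 0.361 (adjusted p = 0.0319), a call that held without day 15 animal 1 or day 18 animal 1 and ended without any of the other 5 (-1.62 to -0.86). Of 20 T and NK cell markers 4 rose and 2 fell (2 to 7 rose without any 1 animal). Also on this list, KLRK1 rose by 0.46 ± 0.13 and CD5 by 0.42 ± 0.0932, and the KLRK1 call ended in 6 of 7 fits without 1 animal. TPSB2, a tryptase of mast cells, was at 7.29, 7.72, 7.42 and 7.83 on day 18 and at 6.94, 6.88 and 6.91 on day 15 and rose by 0.66 ± 0.13, as 1 of 4 markers of mast cells and eosinophils. CD79A, a B cell receptor chain, fell by 0.69 ± 0.0722 (sign turned as deposited), as 1 of 7 B and plasma cell markers. Neutrophil markers gave 2 higher and 3 lower of 10. HBA, a haemoglobin chain, fell by 0.76 ± 0.0871, HBM, another, by 0.67 ± 0.0706 (sign turned as deposited), PF4, a platelet factor, fell by 0.76 ± 0.109 and ALAS2, the haem enzyme of red cell precursors, rose by 0.92 ± 0.108, all at levels below 7.

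Trophoblast genes served as a control, since cyclic animals carry no conceptus. SSLP1, a member of this list, stood at 10.21, 9.89, 10.40 and 10.04 on day 18, against 9.10, 9.16 and 9.18 on day 15, and rose by 0.99 ± 0.118 (adjusted p = 0.000625). ELF5, an epithelial and trophoblast transcription factor, rose by 0.83 ± 0.142, PAG11, a pregnancy-associated glycoprotein, rose by 0.39 ± 0.0968, and PAG8 fell by 0.41 ± 0.0873 (sign turned as deposited). Thus 4 of 10 trophoblast markers passed in tissue without trophoblast, close to the 36.4% of all genes, and with centring on the spiked controls 2 rose and 6 fell. The mean list level was 4.91 to 5.00 on day 18 and 4.73 to 4.86 on day 15.

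Within protein folding, CALR (calreticulin), a calcium-binding chaperone of the endoplasmic reticulum, stood at 11.46, 11.36, 11.54 and 11.30 on day 18, against 10.42, 10.48 and 10.26 on day 15. It rose by 1.03 ± 0.0875 (2.04-fold, adjusted p = 0.000179) and by 0.95 in pregnant animals. The disulfide isomerases PDIA4 and PDIA3 rose by 0.61 ± 0.068 and 0.48 ± 0.0659, though of 2 other PDIA4 probe sets 1 rose and 1 fell. SDF2L1, a partner of endoplasmic reticulum chaperones, was at 5.45, 5.59, 5.44 and 5.45 on day 18 and at 6.55, 6.54 and 6.70 on day 15 and fell by 1.11 ± 0.0748. Of 25 genes 4 rose (16%, beside 19.7% of all genes) and 1 fell (1 and 8 with centring on the spiked controls).

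Oxidative phosphorylation and ribosomal genes depended on the scaling. Of 29 genes of oxidative phosphorylation 3 rose and 6 fell, and 18 fell with centring on the spiked controls. CYC1, cytochrome c1, rose by 0.57 ± 0.106, and NDUFB3, a subunit of complex I, fell by 0.48 ± 0.0915 (sign turned as deposited). Of 26 cytosolic ribosomal protein genes 3 rose and 2 fell after quantile normalisation, and 1 rose and 25 fell with either centring. These are among the brightest probe sets, with a mean list level of 12.83 to 12.88 on day 18 and 12.85 to 12.87 on day 15. Of 17 immediate early genes, 2 rose and 1 fell: JUND rose by 0.71 ± 0.0726 and NR4A2, an orphan nuclear receptor, fell by 1.2 ± 0.143, each with 1 other probe set past the threshold the opposite way.

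Set on the longer course of the cycle, normalised over the 12 cyclic arrays of days 12, 15 and 18, these changes fell into different shapes. The stretch of horn is labelled distal on day 12, so day, stretch and normalisation set again coincide, and no test was made. OXTR was at 4.26 ± 0.16 on day 12, 4.62 ± 0.57 on day 15 and 6.35 ± 0.49 on day 18 (SD, n = 5, 3 and 4), so its higher level appeared on day 18, and days 12 and 15 did not differ beyond their spread. ESR1 was at 5.36 ± 0.10, 4.69 ± 0.11 and 5.65 ± 0.24 on these days, lowest on day 15. KDR had the same order, at 4.94 ± 0.30, 3.79 ± 0.13 and 5.25 ± 0.45.

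SERPINA14 had the opposite order, at 6.63 ± 0.65 on day 12, 7.92 ± 0.48 on day 15 and 6.31 ± 0.60 on day 18, with days 12 and 18 overlapping. CRIPTO fell away over all 3 days, at 11.41 ± 0.18, 10.13 ± 0.65 and 6.54 ± 1.13, and DGAT2 did likewise, at 10.16 ± 0.40, 7.45 ± 0.48 and 6.20 ± 0.24. LPL was at 7.89 ± 0.59, 5.26 ± 0.44 and 4.97 ± 0.36, so that most of its difference lay between days 12 and 15. PGR was at 4.75 ± 0.17, 4.28 ± 0.37 and 4.17 ± 0.15. PTGS2 was at 8.15 ± 0.72, 9.53 ± 0.17 and 9.80 ± 0.37, with days 15 and 18 overlapping.

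**Figure D5:**
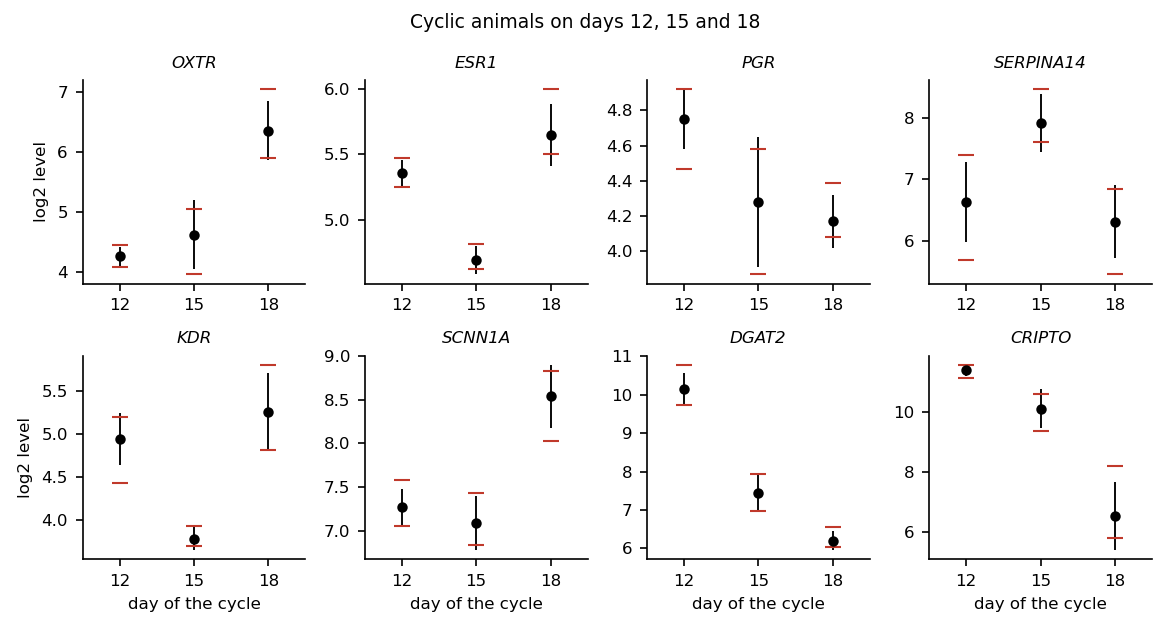
Log2 levels of 8 genes in cyclic animals on days 12, 15 and 18 (n = 5, 3 and 4), with means (black points), SD (black bars) and the lowest and highest animal (red ticks). OXTR and SCNN1A are high on day 18 alone, ESR1 and KDR are lowest on day 15, SERPINA14 is highest on day 15, and DGAT2 and CRIPTO are lower on each later day.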

How the data were processed

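Endometrial RNA of 33 heifers was hybridised to Affymetrix bovine arrays; 7 cyclic arrays are compared here, beside 7 pregnant arrays of the same days and 5 cyclic arrays of day 12. The authors deposited log2 values with 2 decimals, made with RMA in affy per the submitters' processing notes; versions are not given in the sources used here. That the days were normalised separately was inferred from the values. The 7, 14 or 12 arrays were quantile normalised together over 24016 probe sets, without 112 control probe sets. limma 3.58.1 in R 4.3.3 (lmFit, eBayes, two-sided) gave Benjamini-Hochberg adjusted p-values over all 24016 probe sets, called below 0.05; the number of arrays limits the precision (median SE 0.0954). Permutation tests used scipy 1.17.1. On simulated data for cyclic day 18 minus day 15 over 24016 probe sets, 31 of 50 changes of 0.5 log2, 44 of 50 of 1 and all 50 of 2 and of 3 were recovered, with 14 of 23816 unchanged probe sets called. The simulation changed few probe sets and held no shift between the days. Its rates therefore do not carry over to the data, where 38.6% of probe sets passed, and say nothing of the scaling.

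Of the probe sets, 13292 had 1 gene symbol in the array's annotation, 86 several and 10638 none; 13263 symbols were updated through RefSeq, and the brightest probe set stood for a gene. A rule gave the 156 named genes. They are the 12 strongest increases and 12 strongest decreases past the threshold without overlap (LOC symbols left out) and the 4 largest changes past it in each of 35 lists. The rule also took 27 measured genes of a fixed set, and up to 6 difference terms each way. Some of these genes are not described in the text, and CD86, ALOX5AP, CD180, OLR1 and ANXA1 were added outside the rule. Members and lists were chosen with earlier results of these data known. Each array is 1 animal. Replicate numbers do not pair the samples: same-numbered arrays of the 2 days correlated at -0.027, -0.003 and -0.179 in their deviations from the group means. Alternatives were other scalings, fits on 14 or 24 arrays, a filter on dim probe sets, trend and robust eBayes, array weights, a replicate block, the GAPDH signal difference as covariate, the mean over probe sets, and leaving out each animal.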

Additional observations from a re-analysis of the deposited data

Results flagged for a closer look

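Of 156 named genes, 12 had 1 of the 4 cyclic day 18 animals far from the other 3 by Dixon's criterion; chance flags about 1 in 20 groups, and other groups of 4 were not looked at. The animal that stood apart was the highest in ACOT4 (6.40), CST6 (11.14), ESR1 (6.06), INS (6.00), JUND (10.95), PDIA3 (10.87), PGR (4.54), RUBCNL (8.87), SDF2L1 (5.59) and UBA7 (8.73), and the lowest in HERC5 (5.31) and TRAK2 (2.74). ESR1 was called without this animal too, whereas UBA7 was not.

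In 14 genes the change from day 15 to day 18 differed between cyclic and pregnant animals by the test of the difference on the brightest probe set. The other probe sets of IDO1, MSR1 and TENM3 did not pass it. The cyclic change lay below the pregnant one in IDO1 (-2.18), KRT17 (-1.73), C2 (-1.67), BPI (-1.62), FCGR3A (-1.25), MSR1 (-1.21), ALOX5AP (-1.20), CD180 (-1.17), OLR1 (-1.15), ANXA1 (-1.03) and CD86 (-0.97). It lay above it in ALDH1L2 (0.53), TENM3 (0.88) and TRAK2 (2.88). ALOX5AP, the activating protein of leukotriene synthesis, CD180, a B cell and macrophage surface receptor, OLR1, a receptor for oxidised lipoprotein, ANXA1, an annexin that dampens inflammation, and CD86 are named after their values were seen. Of these, ALOX5AP, CD180, OLR1 and ANXA1 differed in cyclic animals by -0.15, -0.04, 0.15 and -0.14 without passing and rose in pregnant animals by 1.05, 1.13, 1.29 and 0.90. Their calls of the difference ended in 7, 4, 11 and 5 of 14 fits without 1 animal. With the replicate block the calls of ALOX5AP, CD180 and ANXA1 ended. OLR1 lay low on the scale in cyclic animals, at 3.17 to 3.58.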

How the results depend on the processing

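No replicate block belongs to the design, since equal numbers name different animals; with the replicate block 5956 probe sets passed (3022 higher, 2934 lower) and 7 for the difference term. As deposited, without joint normalisation, 20260 passed (19214 higher, 1046 lower). Median centring gave 7709 lower and 11715 in all, and centring on the spiked controls 1663 higher, 8784 lower and 10447 in all. Without any 1 animal 7610 to 8056 passed (3845 to 4129 higher, 3765 to 3927 lower). The difference term gave 70 with 24 arrays, 38 without the dimmest probe sets and 36 with array weights. It gave 6 to 43 without 1 animal: 7, 12 and 11 without cyclic day 18 animals 1, 3 and 4, 6, 15 and 10 without cyclic day 15 animals 1, 2 and 3, 43 and 13 without pregnant day 18 animals 1 and 4, and 13 and 6 without pregnant day 15 animals 2 and 3. Other settings stayed within 1.5 times the counts reported. The split of all calls into higher and lower thus rests on the scaling, and the cause was not tested.

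Single genes turned in sign as deposited, where the day 18 median stands 0.655 higher: AGR2 0.24, AIF1 0.02, ASPM 0.35, BPI 0.36, C1QC 0.14, CD79A 0.1, COL18A1 0.15, COX6C 0.1, CSPG4 0.26, CYP19A1 0.51, EMCN 0.06, FBN1 0.24, FCGR3A 0.35, GJB2 0.31, HBM 0.13, IDO1 0.56, IGF2R 0.25, MCAM 0.18, MMP2 0, MSR1 0.09, NDUFB3 0.09, PAG8 0.46, PDGFRB 0.38, PGRMC1 0.2, RPL27 0.08, RPLP2 0.05 and THBS1 0.16. Centring on the spiked controls turned ATP5F1B -0.03, BUB1B -0.06, CTNNB1 -0.04, ELANE -0.23, HSD17B8 -0.05 and RPL13 -0.38, and median centring ELANE -0.09 and RPL13 -0.23. Centring on the spiked controls also ended the calls of 32 named genes, all of them rises except CYP19A1 and IDO1. Among these rises were C1R, C1S, C2, SERPING1, CCND1, FKBP4, HSD11B2, IGFBP4, TCF7L2, LRP5, MMP23 and TIMP1. Others were PTGDS, PTGES3, BOLA-DMA, PDIA3, PDIA4, CYC1, CENPF, CD5, KLRK1, PAG11, TENM3 and UBA7. The mean over probe sets turned IDO1 0.11, IGF2R 0.21, MSR1 0.06 and TENM3 -0.59. COX6C and IGF2R each have another probe set past the threshold as higher (0.32 and 0.76). The replicate block ended the calls of 31 of the 156 named genes and turned none.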
